A study of Mus musculus with 90 samples.

Results

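Endothelial cells line the blood and lymph vessels, and in the lung they form the capillary net across which gas is exchanged. The 35 genes described here are a list of lung endothelial genes named by symbol. Each was represented by its brightest probe set, that is, the one with the highest mean over the 90 arrays among those that the platform annotation gives to that symbol alone. All 35 were on the array, among 17097 genes in all. In lungs of wild-type mice that had inhaled styrene for 1 week, 33 of the 35 genes had a mean below that of the controls at 40 ppm and 32 did at 120 ppm, where 42.8% and 49.5% of all genes did. In the other 10 comparisons of exposed mice with their controls, after 4 weeks or in mice without Cyp2f2, the median difference over the 35 genes lay between -0.05 and 0.13 on the log2 scale.

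Growth of the endothelium is driven by vascular endothelial growth factor, which signals through Kdr and is bound by Flt1, and vessel quiescence is maintained by angiopoietin signalling through Tek. Cldn5, Cdh5 and Pecam1 join neighbouring endothelial cells. In lung, Car4 and Ednrb mark the large aerocyte capillary cells, and Gpihbp1 and Aplnr mark general capillary cells. Vwf marks larger vessels, and Prox1 marks lymphatic vessels.

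The samples were whole lungs of adult male C57Bl/6 mice, 5 per group in 18 groups. The strains were wild type (WT), a CYP2F2(-/-) knockout (KO), and a transgenic strain (TG) that the labels write as CYP2F2(-/-),2F1,SA13,2B6, so that KO and TG mice both lacked Cyp2f2, a lung cytochrome P450 known to oxidise styrene. Each strain breathed 0 (air alone), 40 or 120 ppm styrene for 1 or 4 weeks, and lungs were collected the next morning. Neither the promoter of the transgenes nor the tissues that express them is stated in the labels. Each animal gave 1 array, and values are log2 expression as deposited by the authors, so that a difference of 1 is a 2-fold difference. The tissue was whole lung, and levels are relative within the set of arrays. Fewer endothelial cells, less RNA per endothelial cell and more RNA from other cells therefore cannot be told apart.

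Cyp2f2 was 13.27 ± 0.05 (SD, n = 10) in unexposed WT lungs, 11.86 ± 0.16 in KO lungs and 11.88 ± 0.14 in TG lungs, and 0 KO or TG animals reached the lowest WT value (permutation test of KO against WT with 100000 resamples, two-sided, p = 6e-05). Where its probes lie relative to the deleted part is not known here. Array medians ranged from 4.42 to 4.86, and 4 arrays had a limma array weight below 0.25. They were KO 4 weeks 40 ppm animal 1, WT 1 week 120 ppm animal 3, TG 1 week 0 ppm animal 5 and KO 1 week 0 ppm animal 3. One of them, WT 1 week 120 ppm animal 3, stood in the group with the largest endothelial difference and had the lowest array median. Animal numbers are the biological replicate numbers of the labels, which do not say whether they pair animals across groups.

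The members varied together to different degrees. Over the 90 arrays, the correlation of a member with the mean of the other members ranged from -0.24 for Prox1 to 0.83 for Pecam1, with a median of 0.59. After group means were removed the median was 0.51, and Emcn, the surface sialomucin endomucin, had the lowest value of -0.23. The members most like the rest over all arrays were Pecam1, Flt1 at 0.82 and Cd93 at 0.80, and those least like it besides Prox1 were Car4 at -0.11, Emcn at -0.06 and Ramp2 at -0.03. These correlations are descriptions, and the arrays share preparation and scaling. A mean above the 40th percentile of all gene means was found for 34 members. The exception was Prox1, the transcription factor of lymphatic identity, with a mean of 3.09, and its values carry little information.

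Lungs of WT mice exposed for 1 week had the lowest endothelial levels of all groups. The mean of the 35 members, each taken relative to its own mean over the 90 arrays, was -0.09, 0.15, 0.00, -0.06 and 0.12 in the 5 WT controls at 1 week. It was -0.22, -0.22, -0.12, -0.22 and -0.35 at 40 ppm. It was -0.34, -0.19, -0.24, -0.12 and -0.48 at 120 ppm. All 10 exposed animals were thus below all 5 controls, and 7 of the 10 were below each of the other 80 animals of the series, which ranged from -0.20 to 0.29. Of those 80 animals, 2 lay below the highest of the 10.

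Ordered by group, the mean was -0.27 ± 0.14 (SD, n = 5) in WT at 120 ppm and 1 week and -0.23 ± 0.08 at 40 ppm. The ranges of these 2 groups, -0.48 to -0.12 and -0.35 to -0.12, overlapped. The other 16 group means ran from -0.06 ± 0.05 in KO controls at 1 week to 0.15 ± 0.10 in TG mice at 120 ppm and 4 weeks. WT controls at 1 week, at 0.02 ± 0.11, lay in the middle of those 16, and neighbours in that order differed by less than their SD. No test was made on this mean, because the list was chosen with earlier results known.

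**Figure D1:**
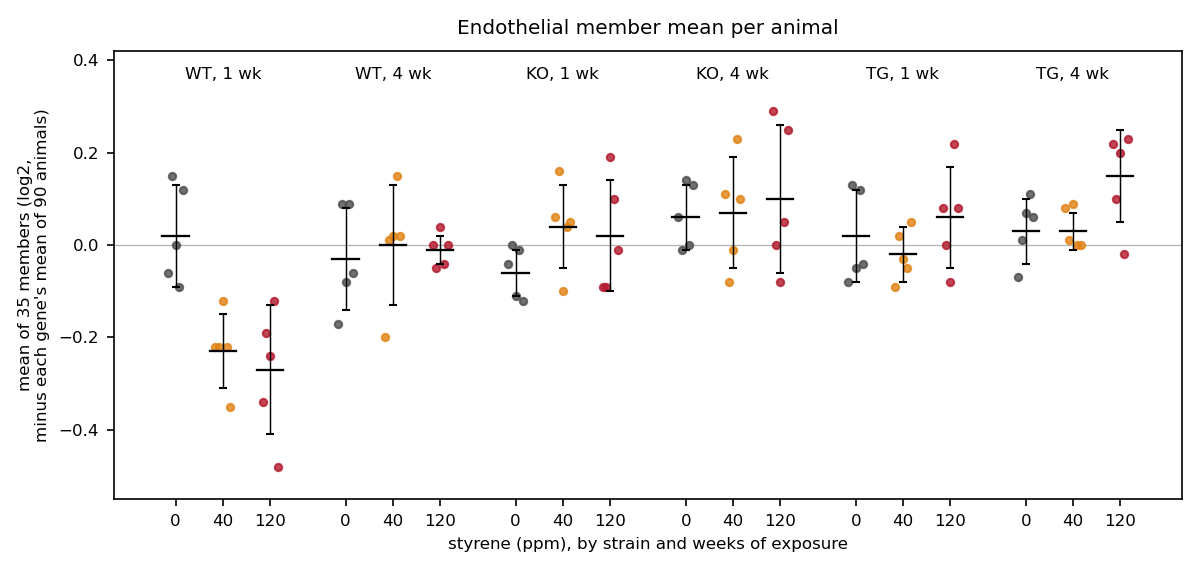
Mean of the 35 endothelial members in each animal (points, log2 units relative to each gene's mean over 90 animals), with the group mean (bar) and SD (whisker), by strain, weeks of exposure and styrene dose in ppm. The 10 exposed WT animals at 1 week lie between -0.48 and -0.12, and the other 80 animals lie between -0.20 and 0.29.

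Single genes were tested with limma in a fit of all 90 arrays, with p-values adjusted over the 17097 genes (Benjamini-Hochberg) and a threshold of 0.05. At 40 ppm and 1 week in WT mice 4 members fell, namely Tek, Emcn, Flt1 and Cd93, and 0 rose, against 0.854% of all genes that fell and 4.67% that changed in either direction. The median member difference was -0.29 where that of all genes was 0.03, and 4.28% of all genes lay below the member median. At 120 ppm 11 members fell, namely Kdr, Tek, Flt1, Eng, Ednrb, Cldn5, Pecam1, Clec14a, Cd93, Clec1a and Hpgd, against 2.85% of all genes, and 1 member rose, Car4, against 3.94% of all genes, with 6.79% changed in either direction. The median member difference was -0.34 where that of all genes was 0.00, and 5.72% of all genes lay below it. At an unadjusted p under 0.05 there were 16 members at 40 ppm (16.3% of all genes) and 20 at 120 ppm (19.9% of all genes).

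Every exposed animal was below every control for Tek, Emcn, Pecam1 and Flt1 at 40 ppm, where 1.25% of all genes showed that, and for Kdr, Tek, Cldn5 and Flt1 at 120 ppm, where 1.31% did. Both doses were set against the same 5 controls. The counts rested on some animals. Without WT control animal 2 they were 0 at 40 ppm and 6 at 120 ppm, and without control animal 5 they were 1 and 7. Without control animal 4 the 40 ppm count was 2, and it was 1 without 40 ppm animal 1 and 2 without 40 ppm animal 4. Without 120 ppm animal 5, the animal with the lowest member mean, the 120 ppm count was 4. When only the 10 arrays compared were fitted, 2 members passed at 40 ppm and 0 at 120 ppm. The count over all genes went from 799 to 942 at 40 ppm and from 1161 to 36 at 120 ppm.

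Some single calls did not depend on any 1 animal. At 120 ppm Kdr, Tek, Cldn5 and Flt1 passed with each animal of the comparison left out in turn. In the limma fit of only the arrays compared, their adjusted p was 0.15, 0.19, 0.09 and 0.093. The other 8 calls, Ednrb, Eng, Pecam1, Clec14a, Clec1a, Cd93, Hpgd and Car4, did not pass without 120 ppm animal 5. Without control animal 2 Ednrb, Pecam1, Clec1a, Cd93, Hpgd and Car4 did not pass, and without control animal 5 Pecam1, Clec14a, Cd93, Hpgd and Car4 did not. Without control animal 3 Hpgd, Cd93 and Car4 did not pass. Pecam1, Cd93 and Car4 did not pass without 120 ppm animal 1, Cd93 and Car4 without animal 2, and Clec1a without animal 3. At 40 ppm Tek did not pass without control animal 2 or 40 ppm animal 4, and Flt1 did not without control animal 2 or 5 or 40 ppm animal 1. Emcn did not pass without control animal 2, 4 or 5 or 40 ppm animal 1, 2, 3 or 5, and Cd93 passed only in the fit without control animal 1. With the median over each gene's probe sets in place of the brightest, Flt1 had an adjusted p of 0.41 at 40 ppm and 0.11 at 120 ppm, and Cd93 of 0.69 and 0.22. The further probe sets of Cd93 were dim, with means of 4.15 and 2.87, below the 40th percentile of all gene means (5.05).

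**Figure D2:**
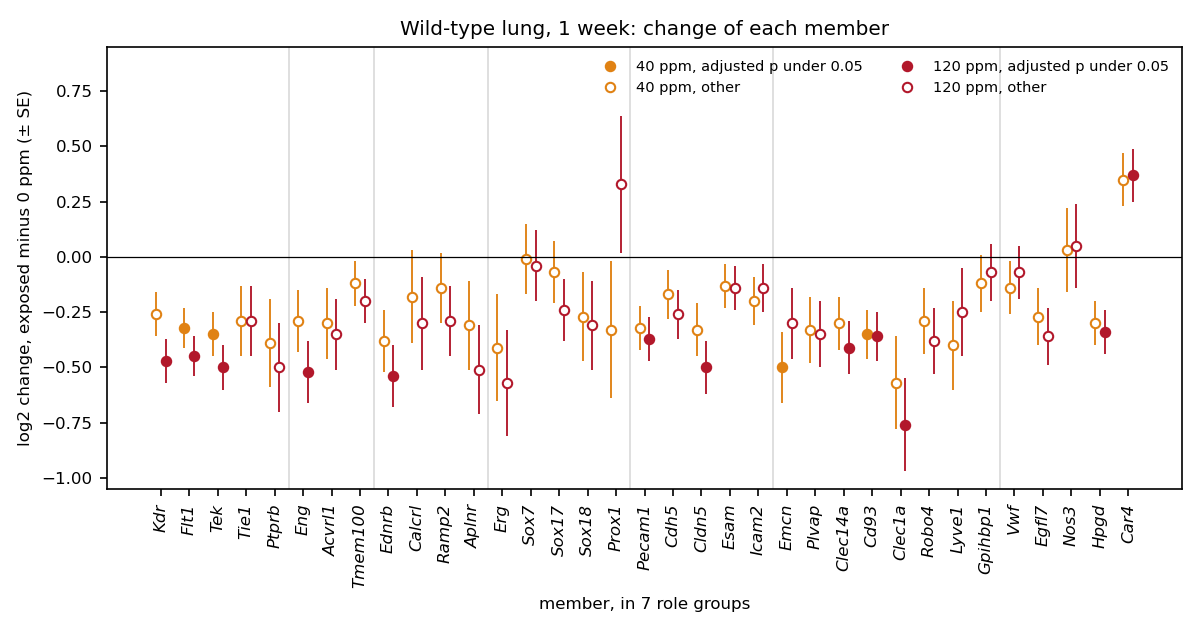
Log2 difference of each member between exposed and unexposed WT lungs at 1 week (points, with the standard error of the fit as bars), at 40 and 120 ppm, in 7 groups by role (vertical lines). Filled points passed an adjusted p of 0.05. At 120 ppm 11 filled points lie below 0 and 1, Car4, lies above.

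The promoters of some members that passed at 40 or 120 ppm are shown so that their sequences can be set beside these differences. RefSeq windows of GRCm38.p6, from 250 bases before to 50 bases after the gene's start, were held for 16 of the 35 members. The letters AGGAAG or their reverse complement CTTCCT, a core bound by ETS factors such as Erg, stood in 9 of the 16 windows (56.2%) and in 35.2% of all 27025 windows. ACAAT or ATTGT, a core bound by SOX factors such as Sox17, stood in 7 of 16 (43.8%) and in 31.7% of all windows. CACGTG, the E-box bound by clock factors, stood in 0 of 16 and in 7.09% of all windows. No ETS match overlapped a SOX match in the windows printed, and the 2 ETS matches of Hpgd share 2 bases. The motifs and the windows printed were chosen with the results and the matches known. They are 6 members that fell at 40 or 120 ppm and hold a match, and Car4, which rose and holds none. Cldn5, Ednrb and Kdr also fell and hold neither core. Calcrl, Egfl7, Erg, Robo4 and Tie1 hold the ETS core and passed at neither dose, and of these Calcrl, Erg and Robo4 also hold the SOX core. Their windows are not printed, so the windows shown do not tell whether a match goes with a fall. Each window runs 5′ to 3′ on the gene's strand, with ETS and SOX matches in capitals.
Tek (chr4:94739039-94739338, forward strand): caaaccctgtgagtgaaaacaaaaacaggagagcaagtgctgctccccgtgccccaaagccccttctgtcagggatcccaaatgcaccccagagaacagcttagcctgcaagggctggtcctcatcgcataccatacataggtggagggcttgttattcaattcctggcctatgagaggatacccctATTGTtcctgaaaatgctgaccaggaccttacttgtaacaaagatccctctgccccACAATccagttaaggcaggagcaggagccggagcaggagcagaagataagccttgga
Flt1 (chr5:147725962-147726261, reverse strand): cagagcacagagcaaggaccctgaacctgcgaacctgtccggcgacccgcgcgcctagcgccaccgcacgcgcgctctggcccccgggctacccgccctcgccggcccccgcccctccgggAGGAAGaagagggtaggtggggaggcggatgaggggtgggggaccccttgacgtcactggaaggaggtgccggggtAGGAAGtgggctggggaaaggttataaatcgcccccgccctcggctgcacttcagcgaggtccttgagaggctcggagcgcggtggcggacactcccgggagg
Eng (chr2:32646345-32646644, forward strand): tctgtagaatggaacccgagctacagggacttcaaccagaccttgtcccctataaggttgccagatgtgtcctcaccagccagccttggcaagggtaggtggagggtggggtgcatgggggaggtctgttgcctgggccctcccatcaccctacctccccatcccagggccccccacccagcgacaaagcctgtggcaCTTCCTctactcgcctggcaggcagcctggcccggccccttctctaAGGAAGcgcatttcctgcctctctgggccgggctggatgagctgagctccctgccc
Emcn (chr3:137340828-137341127, forward strand): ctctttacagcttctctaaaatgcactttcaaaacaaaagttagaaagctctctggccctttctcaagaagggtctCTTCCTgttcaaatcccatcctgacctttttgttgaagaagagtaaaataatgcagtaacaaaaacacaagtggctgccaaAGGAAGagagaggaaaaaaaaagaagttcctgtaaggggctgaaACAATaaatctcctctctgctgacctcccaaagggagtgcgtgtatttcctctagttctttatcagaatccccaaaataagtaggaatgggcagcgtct
Clec14a (chr12:58269209-58269508, reverse strand): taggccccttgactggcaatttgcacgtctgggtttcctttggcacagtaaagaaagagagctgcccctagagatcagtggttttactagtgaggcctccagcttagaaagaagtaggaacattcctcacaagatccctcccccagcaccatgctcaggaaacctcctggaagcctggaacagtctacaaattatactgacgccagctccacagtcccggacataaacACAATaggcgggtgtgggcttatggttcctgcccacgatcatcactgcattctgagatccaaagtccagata
Hpgd (chr8:56294302-56294601, forward strand): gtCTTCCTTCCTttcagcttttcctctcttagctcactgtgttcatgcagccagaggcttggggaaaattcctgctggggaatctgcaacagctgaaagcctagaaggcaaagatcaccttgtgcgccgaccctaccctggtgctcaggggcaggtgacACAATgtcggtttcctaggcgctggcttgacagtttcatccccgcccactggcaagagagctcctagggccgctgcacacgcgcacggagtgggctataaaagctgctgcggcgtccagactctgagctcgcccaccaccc
Car4 (chr11:84957504-84957803, forward strand): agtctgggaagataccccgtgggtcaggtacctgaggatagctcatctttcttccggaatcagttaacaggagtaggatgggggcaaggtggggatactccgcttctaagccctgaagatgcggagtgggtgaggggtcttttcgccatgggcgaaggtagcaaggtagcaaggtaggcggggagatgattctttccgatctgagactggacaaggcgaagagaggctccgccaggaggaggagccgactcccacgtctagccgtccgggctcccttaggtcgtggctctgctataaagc
Tek holds 2 SOX matches and no ETS match, Flt1 and Eng hold 2 ETS matches each, Emcn and Hpgd hold 2 ETS matches and 1 SOX match each, and Clec14a holds 1 SOX match. These matches describe the letters and are not binding sites measured here.

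Of the 5 genes for endothelial growth factor receptors and their phosphatase, Kdr, Flt1, Tek, Tie1 and Ptprb, 2 fell at 40 ppm and 3 at 120 ppm in WT lungs at 1 week. All 5 were below 0 at both doses, with a median of -0.32 at 40 ppm and -0.47 at 120 ppm. Kdr, the main signalling receptor for VEGF, was 10.01, 10.14, 10.15, 10.19 and 10.43 in controls, 9.77, 9.88, 9.96, 9.99 and 10.02 at 40 ppm, and 9.44, 9.61, 9.71, 9.83 and 9.98 at 120 ppm. All 120 ppm animals were below all controls, while at 40 ppm the highest animal just passed the lowest control. The difference was -0.26 (SE 0.10, adjusted p = 0.15) at 40 ppm and -0.47 (SE 0.10, adjusted p = 0.001) at 120 ppm, the latter a 1.38-fold lower level.

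Tek, the angiopoietin receptor Tie2, was 10.59, 10.62, 10.68, 10.73 and 11.18 in controls, 10.37, 10.40, 10.42, 10.42 and 10.45 at 40 ppm, and 10.04, 10.08, 10.25, 10.45 and 10.49 at 120 ppm. No exposed animal reached the lowest control, and control animal 2 stood above the rest. Tek fell by 0.35 (SE 0.10, adjusted p = 0.023) and 0.50 (SE 0.10, adjusted p = 0.00035), a 1.41-fold lower level at 120 ppm. Without control animal 2 its adjusted p at 40 ppm was 0.24. Flt1, the VEGF receptor that can also act as a decoy, was 8.94, 9.10, 9.14, 9.26 and 9.27 in controls, 8.75, 8.79, 8.80, 8.85 and 8.93 at 40 ppm, and 8.57, 8.57, 8.64, 8.79 and 8.85 at 120 ppm. Again no exposed animal reached a control. It fell by 0.32 (SE 0.09, adjusted p = 0.018) and 0.45 (SE 0.09, adjusted p = 0.00019). Ptprb and Tie1 differed by -0.50 (adjusted p = 0.12) and -0.29 (adjusted p = 0.29) at 120 ppm and did not pass.

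Of the 3 genes of BMP9 and TGF-beta signalling, the co-receptor Eng passed at 120 ppm, and the receptor Acvrl1 and the target Tmem100 did not pass at either dose. Eng was 9.40, 9.70, 9.70, 9.81 and 9.91 in controls, 8.97, 9.45, 9.46, 9.56 and 9.62 at 40 ppm, and 8.82, 9.02, 9.04, 9.40 and 9.63 at 120 ppm. The groups overlapped, with 4 of the 120 ppm animals at or below the lowest control and the fifth well inside their range. The difference was -0.29 (SE 0.14, adjusted p = 0.29) at 40 ppm and -0.52 (SE 0.14, adjusted p = 0.012) at 120 ppm. Acvrl1 and Tmem100 differed by -0.35 (adjusted p = 0.18) and -0.20 (adjusted p = 0.29) at 120 ppm.

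Among the 4 G protein-coupled receptors and partners, the aerocyte marker Ednrb, the endothelin receptor type B, was the one that passed. It was 9.11, 9.25, 9.45, 9.47 and 9.74 in controls, 8.93, 8.95, 8.97, 9.09 and 9.19 at 40 ppm, and 8.27, 8.73, 8.98, 9.12 and 9.21 at 120 ppm. At each dose the exposed animals overlapped the low end of the controls. The difference was -0.38 (SE 0.14, adjusted p = 0.11) at 40 ppm and -0.54 (SE 0.14, adjusted p = 0.0073) at 120 ppm. Aplnr, the apelin receptor, differed by -0.51 (adjusted p = 0.12) at 120 ppm, and Calcrl and Ramp2, which together form the adrenomedullin receptor, by -0.30 (adjusted p = 0.48) and -0.29 (adjusted p = 0.31).

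None of the 5 transcription factors passed at either dose. Erg, an ETS factor that maintains endothelial identity, had the largest difference of them at 120 ppm, -0.57, with a standard error of 0.24 (adjusted p = 0.14). Sox18 and Sox17 differed by -0.31 (adjusted p = 0.41) and -0.24 (adjusted p = 0.37), Sox7 by -0.04, and the dim Prox1 by 0.33 with a standard error of 0.31.

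Among the 5 junction and adhesion proteins, Cldn5 and Pecam1 fell at 120 ppm. Cldn5, the tight junction claudin of endothelium, was 11.12, 11.19, 11.20, 11.29 and 11.42 in controls, 10.41, 10.92, 10.96, 10.98 and 11.27 at 40 ppm, and 10.58, 10.62, 10.71, 10.74 and 11.04 at 120 ppm. All 120 ppm animals were below all controls, and at 40 ppm 1 animal lay among them. The difference was -0.33 (SE 0.12, adjusted p = 0.10) at 40 ppm and -0.50 (SE 0.12, adjusted p = 0.0034) at 120 ppm. Pecam1, the adhesion molecule CD31, was 9.60, 9.63, 9.67, 9.80 and 9.91 in controls, 9.21, 9.33, 9.38, 9.52 and 9.56 at 40 ppm, and 9.10, 9.13, 9.27, 9.57 and 9.69 at 120 ppm. It differed by -0.32 (SE 0.10, adjusted p = 0.056) at 40 ppm, where the groups did not overlap, and by -0.37 (SE 0.10, adjusted p = 0.016) at 120 ppm, where they did. Cdh5, the cadherin of endothelial junctions, Esam and Icam2 differed by -0.26, -0.14 and -0.14 at 120 ppm and did not pass.

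All 8 surface glycoproteins and guidance receptors were below 0 at both doses. Emcn was 9.34, 9.36, 9.48, 9.52 and 9.99 in controls, 8.86, 8.91, 9.07, 9.10 and 9.26 at 40 ppm, and 9.13, 9.16, 9.22, 9.34 and 9.35 at 120 ppm. It fell at 40 ppm by 0.50 (SE 0.16, adjusted p = 0.047) and differed by -0.30 (SE 0.16, adjusted p = 0.28) at 120 ppm, with control animal 4 above the rest. Cd93, a C-type lectin-like receptor of angiogenesis, was 11.14, 11.40, 11.53, 11.53 and 11.70 in controls, 10.98, 11.06, 11.12, 11.18 and 11.21 at 40 ppm, and 10.91, 11.04, 11.08, 11.17 and 11.32 at 120 ppm. Only its lowest control overlapped the exposed animals, and it fell by 0.35 (SE 0.11, adjusted p = 0.042) and 0.36 (SE 0.11, adjusted p = 0.028).

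Clec14a, a lectin-like partner of the matrix protein Mmrn2, was 10.38, 10.43, 10.57, 10.73 and 10.80 in controls, 10.11, 10.13, 10.32, 10.39 and 10.46 at 40 ppm, and 9.79, 10.08, 10.10, 10.39 and 10.49 at 120 ppm. It differed by -0.30 (SE 0.12, adjusted p = 0.15) at 40 ppm and by -0.41 (SE 0.12, adjusted p = 0.019) at 120 ppm. Clec1a, another C-type lectin-like receptor, was 9.26, 9.45, 9.55, 9.85 and 9.99 in controls, 8.58, 8.95, 9.17, 9.18 and 9.35 at 40 ppm, and 8.17, 8.67, 8.75, 9.23 and 9.48 at 120 ppm. Its difference of -0.76 (SE 0.21, adjusted p = 0.013) at 120 ppm, a 1.69-fold lower level, was the largest of any member, and its spread was also wide, with overlap at both doses. Robo4, Plvap, Lyve1 and Gpihbp1 differed by -0.38, -0.35, -0.25 and -0.07 at 120 ppm and did not pass.

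The 5 secreted proteins and enzymes went different ways. Hpgd, the enzyme that inactivates prostaglandins, fell by 0.34 (SE 0.10, adjusted p = 0.022) at 120 ppm. Egfl7, a secreted endothelial factor, differed by -0.36 (adjusted p = 0.064), while Vwf and Nos3, the endothelial nitric oxide synthase, differed by -0.07 and 0.05. Car4, a membrane carbonic anhydrase, was 10.11, 10.12, 10.24, 10.29 and 10.33 in controls, 10.30, 10.48, 10.53, 10.64 and 10.88 at 40 ppm, and 10.11, 10.27, 10.83, 10.87 and 10.88 at 120 ppm. At 120 ppm 3 animals were above all controls and 2 lay among them. It rose by 0.37 (SE 0.12, adjusted p = 0.041) at 120 ppm and differed by 0.35 (SE 0.12, adjusted p = 0.08) at 40 ppm.

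Car4 is also a marker of alveolar macrophages. Their list of 13 measured markers, which includes it, had 3 that rose at 40 ppm and 4, Car4 among them, at 120 ppm. Of all 17097 genes 653 rose at 40 ppm and 674 at 120 ppm. Ctsk, a cathepsin, rose by 1.25 and 1.26, Ccl6, a chemokine, by 0.59 and 0.60, and the scavenger receptor Marco by 0.98 at 120 ppm. The other listed markers, among them Siglecf, Itgax and Krt79, did not pass at 120 ppm. The mean of that list, with Car4 in it, ranged from -0.45 to 0.04 in controls, from 0.00 to 0.40 at 40 ppm and from -0.01 to 0.73 at 120 ppm. Its part in the Car4 result was not tested.

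**Figure D3:**
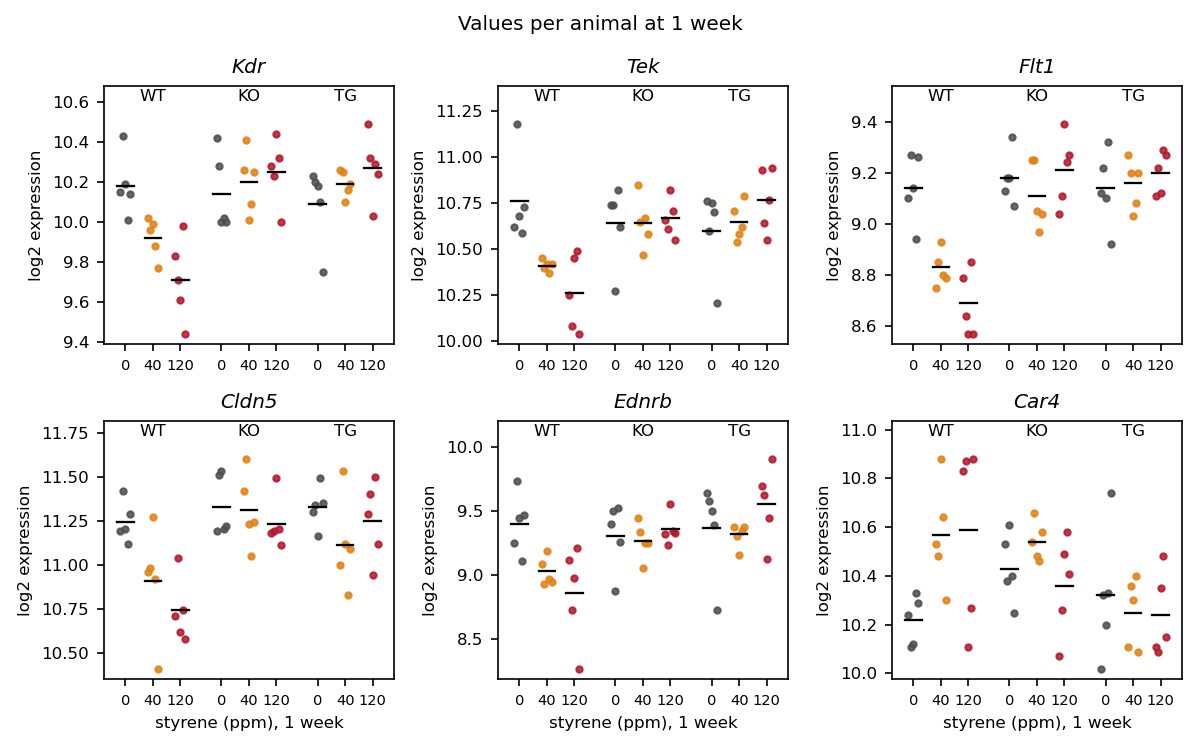
Log2 expression of 6 members in each animal (points) at 1 week, with group means (bars), by strain and styrene dose in ppm. In WT lungs all 120 ppm animals lie below all controls for Kdr, Tek, Flt1 and Cldn5, while Car4 is higher in 3 of 5, and the KO and TG dose groups overlap their own controls.

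Further probe sets of the members mostly had the same sign. Of the members, 15 had 1 probe set and 20 had several. Among 20 further probe sets of usable brightness, from 17 members, 19 were below 0 at 40 ppm and 19 at 120 ppm, with medians of -0.28 and -0.42. The exception at both doses was the second probe set of Car4, at 0.38 and 0.37, next to 0.35 and 0.37 for the first. The 5 dim probe sets had a median of -0.06 at 120 ppm.

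The dose made no difference that passed. Between 120 and 40 ppm in WT mice at 1 week, 0 members passed in limma (0.0% of all genes), and 2 had an unadjusted p under 0.05, Kdr at -0.21 and the dim Prox1 at 0.66. The median over members was -0.07. At 4 weeks the same comparison had 0 members that passed (0.0% of all genes) and 0 at an unadjusted p under 0.05.

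The same exposure in KO and TG lungs moved no member past the threshold in limma. At 1 week KO mice had 0 members at 40 ppm (0.0% of all genes) and 0 at 120 ppm (0.0% of all genes), with 3 and 0 at an unadjusted p under 0.05 and medians of 0.09 and 0.06. In KO mice 27 of the 35 were above 0 at 40 ppm and 28 at 120 ppm, as were 50.5% and 44.7% of all genes. TG mice had 0 at 40 ppm (0.0% of all genes) and 0 at 120 ppm (0.0468% of all genes), with 0 and 1 at an unadjusted p under 0.05 and medians of -0.05 and -0.02. In TG mice 14 of the 35 were above 0 at 40 ppm and 16 at 120 ppm, as were 48.5% and 35.8% of all genes. Tek at 120 ppm was 10.55, 10.61, 10.66, 10.71 and 10.82 in KO mice against 10.27, 10.62, 10.74, 10.74 and 10.82 in their controls. In TG mice it was 10.55, 10.64, 10.77, 10.93 and 10.94 against 10.21, 10.60, 10.70, 10.75 and 10.76. In both strains the exposed animals overlapped their controls.

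The difference between strains was tested as the KO or TG change minus the WT change, and both use the same WT animals. At 120 ppm and 1 week 5 members were higher in KO minus WT (0.608% of all genes higher, 2.37% in either direction), with a median of 0.42 over the 35. They were Kdr at 0.58 (SE 0.14, adjusted p = 0.013), Tek at 0.53 (adjusted p = 0.024), Flt1 at 0.48 (adjusted p = 0.018), Cd93 at 0.53 (adjusted p = 0.044) and Clec1a at 1.01 (SE 0.30, adjusted p = 0.047). For TG minus WT 6 members were higher (1.17% of all genes higher, 4.59% in either direction), with a median of 0.33. They were Kdr at 0.65 (SE 0.14, adjusted p = 0.0025), Tek at 0.66 (adjusted p = 0.0017), Flt1 at 0.52 (adjusted p = 0.0063), Ednrb at 0.74 (SE 0.20, adjusted p = 0.016), Hpgd at 0.56 (adjusted p = 0.011) and Clec1a at 1.15 (SE 0.30, adjusted p = 0.012). In these comparisons Kdr, Tek, Flt1 and Clec1a passed against both strains. Each was refitted under 29 alternatives. Clec1a did not pass in 17 of them for KO minus WT and in 4 for TG minus WT. Kdr, Tek and Flt1 did not pass in 4, 7 and 5 for KO minus WT and in 2, 1 and 3 for TG minus WT.

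For Tek the changes behind these values at 120 ppm were -0.50 in WT, 0.03 in KO and 0.16 in TG mice. For Flt1 they were -0.45, 0.03 and 0.06, and for Clec1a -0.76, 0.25 and 0.39. The KO minus WT count at 120 ppm was 0 without WT control animal 2 and 0 without WT 120 ppm animal 5. It was 3 without WT control animal 3, KO control animal 1, KO control animal 5 or KO 120 ppm animal 4, 2 without KO control animal 3 or WT 120 ppm animal 2, 1 without KO 120 ppm animal 3 and 10 without WT 120 ppm animal 4. The TG minus WT count was 3 without TG control animal 5, and 10 without WT 120 ppm animal 4 or TG 120 ppm animal 3. Kdr, Tek and Flt1 passed for TG minus WT with each animal left out in turn. When only the arrays compared were fitted, both counts at 120 ppm were 0.

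At 40 ppm and 1 week the KO change exceeded the WT change for 34 of 35 members and for 43.8% of all genes, with a median of 0.34, and 1 member passed, Hpgd at 0.53 (SE 0.14, adjusted p = 0.038), against 0.205% of all genes higher and 1.25% in either direction. The count was 0 without WT control animal 2, 3 or 5, KO control animal 3, WT 40 ppm animal 3, 4 or 5, or KO 40 ppm animal 1, 4 or 5, and 2 without WT control animal 1, KO control animal 2 or KO 40 ppm animal 3. For TG minus WT at 40 ppm 0 members passed in limma (1.53% of all genes), 9 had an unadjusted p under 0.05 and the median was 0.22.

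**Figure D4:**
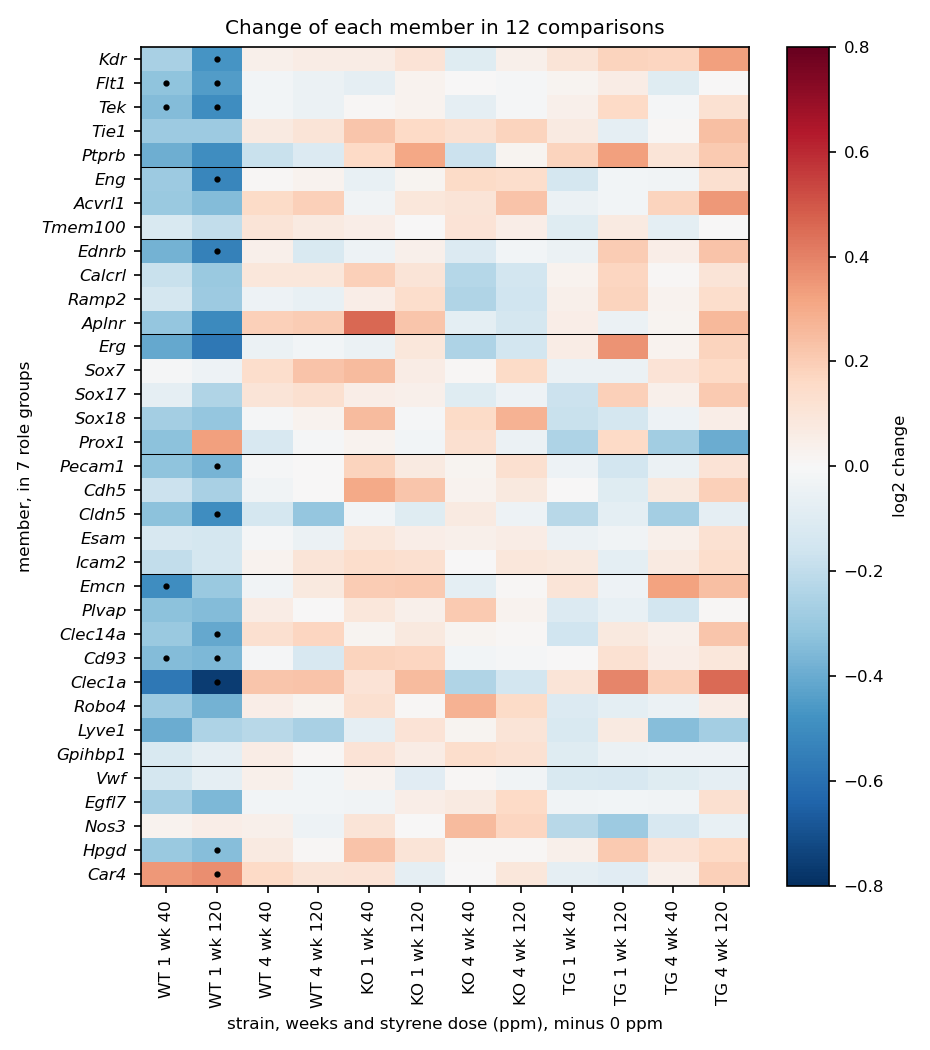
Log2 change from the strain's own controls (colour, limited to ± 0.8) for the 35 members in 12 exposure comparisons, in 7 groups by role (horizontal lines), with a dot where the adjusted p was under 0.05. Dots stand in both WT 1-week columns, 4 at 40 ppm and 12 at 120 ppm, and in none of the other 10.

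After 4 weeks of exposure no member differed from its control past the threshold in WT lungs. In limma 0 members passed at 40 ppm (0.152% of all genes), with 0 at an unadjusted p under 0.05 and a median of 0.04, and 0 passed at 120 ppm (0.439% of all genes), with 1 at an unadjusted p under 0.05 and a median of 0.01. That member was Cldn5, at -0.31 (SE 0.12, adjusted p = 0.56). Tek at 4 weeks was 10.54, 10.67, 10.85, 10.95 and 11.01 in controls, 10.64, 10.74, 10.76, 10.79 and 10.97 at 40 ppm, and 10.59, 10.73, 10.76, 10.81 and 10.86 at 120 ppm. Kdr was 9.77, 10.04, 10.11, 10.23 and 10.23, then 9.88, 10.07, 10.16, 10.21 and 10.27, then 10.05, 10.06, 10.14, 10.18 and 10.23. The dose groups of both genes overlapped throughout.

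The change at 4 weeks minus that at 1 week was itself tested in WT mice. At 120 ppm the median member value was 0.36, 11 members had an unadjusted p under 0.05 and 0 passed in limma (0.883% of all genes). Kdr came nearest, at 0.52 (SE 0.14, adjusted p = 0.052), followed by Clec1a at 0.99 (SE 0.30, adjusted p = 0.10) and Flt1 at 0.40 (SE 0.12, adjusted p = 0.12). The count was 3 without WT 1-week 120 ppm animal 4. It was 1 without WT 1-week control animal 3 or 4, 1-week 120 ppm animal 1 or 2, or 4-week control animal 1, 2 or 4. At 40 ppm the median was 0.27, 11 members had an unadjusted p under 0.05 and 0 passed (0.532% of all genes). The difference between weeks therefore did not pass for any member in the fit of all arrays, although the 1-week changes did.

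At 4 weeks KO mice had 0 members that passed in limma at 40 ppm (0.0% of all genes) and 0 at 120 ppm (0.0234% of all genes), and 0 at an unadjusted p under 0.05 at both doses. TG mice had 0 at 40 ppm (0.0% of all genes) and 0 at 120 ppm (0.0117% of all genes), with 2 and 3 at an unadjusted p under 0.05. In TG mice at 120 ppm 28 of the 35 were above 0, as were 56.9% of all genes, with a median of 0.13, and Kdr, at 0.33 (SE 0.10, adjusted p = 0.43), had the smallest p. The strain differences in change at 4 weeks gave 0 members in limma for KO minus WT at 40 ppm (0.0234% of all genes) and 120 ppm (0.0175% of all genes) and for TG minus WT at 40 ppm (0.0117% of all genes) and 120 ppm (0.0292% of all genes), and 0 at an unadjusted p under 0.05 in each.

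Unexposed strains did not differ in any member past the threshold. In limma, with 10 animals a strain, 0 members passed for KO minus WT (0.275% of all genes), for TG minus WT (0.287% of all genes) and for TG minus KO (0.135% of all genes), with 1, 3 and 1 at an unadjusted p under 0.05. Car4 was 0.27 higher in KO than in WT lungs (SE 0.08, adjusted p = 0.23). Gpihbp1, Nos3 and Vwf were 0.22, 0.31 and 0.17 higher in TG than in WT lungs (adjusted p = 0.44, 0.44 and 0.52).

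Between the 1-week and 4-week controls, all strains averaged, 5 members were higher at 4 weeks, against 11.3% of all genes higher and 17.2% changed in either direction, and 0 members were lower. They were Erg, Lyve1, Calcrl, Ptprb and Hpgd. Erg was higher by 0.51 (SE 0.14, adjusted p = 0.0064) and Lyve1, a hyaluronan receptor, by 0.43 (SE 0.11, adjusted p = 0.0056). Calcrl was higher by 0.42, Ptprb by 0.38 and Hpgd by 0.20. The share of members higher was near that of all genes, and the median member difference was -0.01. Age and the day of collection go with the week and cannot be told apart from it.

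A second list held 33 measured endothelial genes that are not members. In WT lungs at 1 week and 40 ppm 2 of them fell and 1 rose, with a median of -0.18. Of all 17097 genes 0.854% fell and 653 rose. At 120 ppm 11 fell and 1 rose, with a median of -0.25, where 2.85% of all genes fell and 3.94% rose. Gata2, a transcription factor of endothelial and blood cells, fell by 0.88 (SE 0.16, adjusted p = 0.0001) at 40 ppm and by 1.01 (SE 0.16, adjusted p = 5e-06) at 120 ppm. S1pr1, the sphingosine-1-phosphate receptor, and Tspan18 fell by 0.75 and 0.73 at 120 ppm. Procr, the endothelial protein C receptor, rose by 0.80 and 0.82. The per-animal mean of this list was -0.02 ± 0.11, -0.19 ± 0.09 and -0.30 ± 0.14 (SD, n = 5) at 0, 40 and 120 ppm.

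Lists by vessel type stand against the same shares of all genes that fell. Of 9 aerocyte genes 1 fell at 40 ppm, Fibin by 0.49, and 2 fell at 120 ppm, Fam189a2 by 0.50 and Fibin by 0.41. Of 9 general capillary genes 1 fell at each dose, Hilpda by 0.67 and 0.69, a lipid droplet gene that other cells also use. Of 10 arterial genes 2 fell at 40 ppm, the Notch target Hey1 by 0.52 and the ephrin Efnb2 by 0.40, and Efnb2 fell by 0.70 at 120 ppm. Of 6 venous and 7 lymphatic genes 0 passed at either dose in limma and 0 had an unadjusted p under 0.05, with medians of -0.10 and -0.17 for the venous and -0.07 and 0.01 for the lymphatic genes.

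The ligands of the members' receptors showed no common direction. Of 22 ligands 1 rose and 2 fell at each dose, with medians of 0.09 at 40 ppm and 0.01 at 120 ppm. Of all 17097 genes 653 rose and 146 fell at 40 ppm, and 674 rose and 487 fell at 120 ppm. Adm, adrenomedullin, the ligand of Calcrl with Ramp2, fell by 1.49 (SE 0.28, adjusted p = 0.00016) at 40 ppm and by 1.79 (SE 0.28, adjusted p = 4e-06) at 120 ppm. Angpt2, a Tek ligand, fell by 0.40 at 40 ppm, Edn3, a ligand of Ednrb, rose by 0.52 at 40 ppm, and at 120 ppm Pgf, a ligand of Flt1, rose by 0.53 and Bmp6 fell by 0.56. Vegfa, the main ligand of Kdr, differed by -0.12 and -0.19 and did not pass.

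Among 19 Notch, ETS and shear stress factors 1 fell at 40 ppm, Hey1, and 4 fell at 120 ppm, where 0.854% and 2.85% of all genes fell. The 4 are named next. They were the flow-induced factor Klf2 by 0.71, the BMP inhibitor Smad6 by 0.58, the receptor Notch1 by 0.38 and Ets2 by 0.29. Of 8 endothelial activation genes Angpt2 fell at 40 ppm and 0 passed at 120 ppm in limma, and the adhesion molecules Icam1 and Vcam1 differed by 0.11 and -0.21 at 120 ppm.

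The lists for other cells were measured in the same animals. Of all 17097 genes 653 rose and 146 fell at 40 ppm, and 674 rose and 487 fell at 120 ppm. All 14 measured pericyte and smooth muscle markers were below 0 at 40 ppm and 13 were at 120 ppm, with medians of -0.20 and -0.26. The platelet-derived growth factor receptor Pdgfrb, at -0.48 at 120 ppm, was the one that passed. The mean of that list ranged from -0.20 to 0.19 in controls, from -0.36 to -0.18 at 40 ppm and from -0.41 to -0.04 at 120 ppm. Of 14 alveolar type II markers 8 rose at 40 ppm and 5 at 120 ppm, and of 11 alveolar type I markers 0 passed at 40 ppm and 1 fell at 120 ppm. Of 8 platelet markers 1 fell at 120 ppm, Ppbp by 0.72. Of 14 fibroblast markers 2 rose and 1 fell at each dose, with medians of -0.02 at 40 ppm and 0.01 at 120 ppm. The collagen gene Col1a1 rose by 0.74 and 0.79, Mfap4, a protein of elastic fibres, rose by 0.83 and 0.71, and the growth factor receptor Pdgfra fell by 0.54 and 0.56. Of 10 neutrophil markers 2 rose at each dose, Lcn2 by 1.62 and 1.51 and the collagenase Mmp8 by 1.39 and 1.08, with medians of -0.03 and 0.21. Of 10 club and secretory cell markers Cyp2f2 fell at 40 ppm, by 0.33, and 3 fell at 120 ppm, Cyp2f2 by 0.28, Gabrp by 0.63 and Aldh1a1 by 0.20, with medians of -0.11 and -0.15. In limma 0 passed at either dose among 12 T and NK cell, 9 ciliated cell and 4 red cell markers, with 0, 4 and 0 at an unadjusted p under 0.05 at 40 ppm and 1, 1 and 0 at 120 ppm. Of 29 cell cycle genes 26 rose at 40 ppm and 28 at 120 ppm, with medians of 1.20 and 1.42. The proliferation marker Mki67 rose by 1.32 and 1.49.

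The cell cycle mean per animal stood beside the endothelial mean as follows. It was -0.17, -0.38, -0.03, -0.01 and -0.21 in controls, 0.89, 0.92, 1.33, 0.96 and 1.34 at 40 ppm, and 1.54, 1.49, 0.03, 0.66 and 2.47 at 120 ppm, for animals 1 to 5. The 120 ppm animal with the highest cell cycle mean, animal 5, had the lowest endothelial mean, -0.48. The animal with the lowest cell cycle mean at 120 ppm, animal 3, had an endothelial mean of -0.24. Among 16 clock genes 6 rose and 3 fell at 40 ppm and 8 rose and 4 fell at 120 ppm, against the all-gene counts given above. Dbp was higher by 3.36 and 3.42, and Arntl was at -2.28 and -2.43. The part of these lists in the endothelial result was not tested.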

How the data were processed

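Whole-lung RNA of 90 mice was measured on Affymetrix HT MG-430 PM arrays with a 3' IVT labelling kit, 1 array per animal. The deposited values are log2 expression per probe set as made by the authors; the submitters' processing notes list RMA and Partek, without versions. RMA summarises and scales arrays together, so levels are relative within this set. Of 45141 probe sets, 104 controls were left out, 28898 had 1 symbol, 551 several and 15588 no listed gene. Each of 17097 genes took its brightest probe set, which favours well-measured transcripts.

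A model of 18 group means was fitted to all 90 arrays with limma 3.58.1 in R 4.3.3 (72 residual degrees of freedom, empirical Bayes), for 28 comparisons, with Benjamini-Hochberg adjustment over all genes. The fit assumes 1 spread for all groups, and the groups were not equally wide. In WT mice at 120 ppm and 1 week the SD was 0.38 for Ednrb, 0.21 for Tek and 0.18 for Cldn5. The SD pooled over the 18 groups was 0.22, 0.16 and 0.19 for these genes. Where a group is wider than the pooled SD, the standard errors given understate its spread. The code was tested on simulated data. The number of arrays limits the precision. Labels call the animals biological replicates. Same-numbered animals of different groups had a median correlation of deviations of 0.069, against -0.02 for different numbers, and were not paired in the fit.

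Values per animal were given for up to 12 members that passed in a WT exposure or strain comparison, those with the largest change in WT mice at 1 week, and up to 4 genes of other lists. The members, lists, motifs and rules were chosen with earlier results of these data known. Alternatives were a repeated quantile normalization, leaving out dim genes (below the 40th percentile), the median over probe sets, array weights, a variance trend with intensity, a fit restricted to the arrays compared, a covariate of 15 poly-A controls, the replicate block, removal of 4 arrays of low weight, and each animal left out. RefSeq names and promoters are of GRCm38.p6. Human transgenes were not analysed here.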

Additional observations from a re-analysis of the deposited data

Results flagged for a closer look

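In 252 groups of 5 animals, 18 for the member mean and the rest for 13 members that passed at 1 week, 13 single values stood apart from the others of their group by Dixon's test, where chance gives about 1 in 20. Among WT mice at 1 week, Tek was 11.18 in control animal 2 (the other controls 10.59 to 10.73), Emcn was 9.99 in control animal 4 (9.34 to 9.52) and Eng was 8.97 in 40 ppm animal 5 (9.45 to 9.62). In TG control animal 5 at 1 week Ednrb was 8.73 (the others 9.39 to 9.64), Tek was 10.21 (10.60 to 10.76) and Kdr was 9.75 (10.10 to 10.23). Among KO mice at 1 week Cldn5 was 11.49 in 120 ppm animal 3 (11.11 to 11.20), Clec14a was 10.15 in 40 ppm animal 3 (10.57 to 10.65) and Hpgd was 11.02 in control animal 3 (11.43 to 11.55). At 4 weeks Clec1a was 8.72 in WT control animal 2 (9.25 to 9.41), Hpgd was 11.81 in WT 120 ppm animal 1 (11.60 to 11.65), Eng was 10.52 in KO 40 ppm animal 1 (9.51 to 9.72) and Eng was 9.38 in TG 120 ppm animal 4 (9.79 to 9.90).

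The change at 1 week differed between strains by a direct test for 12 pairs of member and comparison, and in each the KO or TG change was the higher. At 120 ppm for KO minus WT the differences were 0.58 for Kdr, 0.53 for Tek, 0.48 for Flt1, 0.53 for Cd93 and 1.01 for Clec1a. For TG minus WT they were 0.65 for Kdr, 0.66 for Tek, 0.74 for Ednrb, 0.52 for Flt1, 0.56 for Hpgd and 1.15 for Clec1a. At 40 ppm Hpgd differed by 0.53 for KO minus WT. The control animal with the high Tek value enters all of these, and without it the KO minus WT count at 120 ppm was 0. Without TG control animal 5 the TG minus WT count at 120 ppm was 3 in place of 6.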

How the results depend on the processing

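No alternative reversed a direction among the 28 single-member differences that passed. The member mean in WT mice at 1 week differed from controls by -0.25 at 40 ppm (-0.279 to -0.218 over the alternatives) and by -0.297 at 120 ppm (-0.335 to -0.246), and the other 10 mean differences, some of which crossed 0, moved by less than the spread between animals. At 40 ppm and 1 week in WT mice the count of 4 was 2 with the median over probe sets, 10 with the poly-A covariate, 14 with array weights, 9 when 4 low-weight arrays were removed, 2 with only the arrays compared, and 0 to 6 without 1 animal. At 120 ppm the count of 12 was 0 with only the arrays compared, where 36 genes were called in all, and 4 to 13 without 1 animal. For the change of KO minus WT at 120 ppm the count of 5 was 15, 3, 2 and 0 with the poly-A covariate, array weights, the median over probe sets and only the arrays compared, and 0 to 10 without 1 animal. For TG minus WT at 120 ppm the count of 6 was 10, 2 and 0 with the poly-A covariate, array weights and only the arrays compared, and 3 to 10 without 1 animal. For KO minus WT at 40 ppm the count of 1 was 0 with quantile normalization again and the median over probe sets, 2 with the intensity trend and with only the arrays compared, 4 with the poly-A covariate, 3 with array weights, and 0 to 2 without 1 animal. For the WT change at 120 ppm between weeks the count of 0 was 1 with array weights and 1 with the intensity trend, 3 with the poly-A covariate, 2 when 4 low-weight arrays were removed, and 0 to 3 without 1 animal. At 40 ppm it was 2 with array weights. TG mice at 120 ppm and 4 weeks had 1 with array weights, and the unexposed week difference had 8 with the poly-A covariate in place of 5. In the labels animals of different groups share only a number. With the replicate block the count was 12 at 120 ppm and 5 at 40 ppm in WT mice at 1 week, 3 for KO minus WT at 40 ppm, 7 for TG minus WT at 120 ppm and 2 for the WT change between weeks at 120 ppm. The remaining counts stayed within 1.5 times under the alternatives run. Of 652 refits of single differences, 148 missed the threshold with the direction kept. Fits of only the arrays compared have fewer samples. In WT mice at 1 week such a fit called 942 genes in all at 40 ppm, against 799 in the main fit. With the same number of arrays it called 36 at 120 ppm, against 1161. The SD of the member mean was 0.11 in the controls, 0.08 at 40 ppm and 0.14 at 120 ppm, and 0.101 pooled over the groups. The cause of the shifts was not tested. Single-member standard errors of 0.09 to 0.31 at 1 week limit which differences could pass.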
